A study of Mus musculus with 3 samples.

Results

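Occupancy of EBF1, a transcription factor of the B lineage, was examined at the loci whose nearest protein-coding gene was Trio, Iqsec1, Tbc1d16 or Ralgps2, 4 genes for regulators of small GTPases. The loci were found by position: each listed region of 300 bp went to the protein-coding gene (RefSeq, GRCm38.p6) whose body was closest to its centre, up to 100 kb away, and overlapping regions were merged. This gave 28 of 4116 regions, which form 15 of 2121 loci. Trio and Tbc1d16 had 5 loci each, Iqsec1 had 4 and Ralgps2 had 1, so several loci lay near 3 of the 4 genes and not near Ralgps2. The genes were chosen by their role and by the loci near them in the authors' list of regions, with the values of both libraries already known. The comparison of the libraries at these loci is therefore a description.

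Small GTPases such as Rac, Arf, Rab and Ral proteins switch between a GTP-bound active form and a GDP-bound inactive form. Guanine nucleotide exchange factors load GTP and so turn them on, and GTPase-activating proteins speed up GTP hydrolysis and so turn them off. In lymphocytes these switches act in migration, adhesion, membrane traffic and signalling from antigen receptors. Trio is an exchange factor of the Dbl family that acts on Rac1. Iqsec1, also called BRAG2, is an exchange factor for Arf6, which acts in endocytosis and integrin traffic. Tbc1d16 is a Rab GTPase-activating protein of the TBC family, and Ralgps2 is an exchange factor for Ral proteins.

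The libraries came from mouse pro-B cells (strain C57BL/6, genotype Ebf1-/-) derived from c-kit+ fetal liver progenitors (E16.5) and grown with OP9 feeder cells. All cells carried the retroviral vectors pMYs-rtTA-Advanced-tdTomato and pRetroX-Tight-Pur-FLAG-NICD1, and received doxycycline at 1 µg/ml for 6 hours without feeder cells to induce NICD1, the intracellular part of the Notch1 receptor. EBF1 was supplied by a further retrovirus, either wild type (EBF1wt) or carrying the amino acid substitution in its name (EBF1E271A), so all EBF1 was ectopic, and no cells without NICD1 induction were among the samples. The groups were an EBF1wt chromatin immunoprecipitation, an EBF1E271A one and an input from EBF1wt cells, with 1 library each, and the sources used here do not say whether a library pooled embryos or cultures. Each immunoprecipitation used 20 µg of chromatin and 4 µg of antibody to EBF1. Human BJAB lymphoma cells were mixed in at 1 per 10 mouse cells to set the scale. The comparison asks how the substituted protein occupies these loci relative to the wild-type protein while NICD1 is present.

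Scaled counts were compared, that is, read counts per region multiplied by the authors' spike-in factor of the library. The reads before scaling are inferred from the even spacing of the values in each library, and no source states them. On this inference the 4116 regions summed to 515897 reads for EBF1wt and 1105818 for EBF1E271A. Reads shared by overlapping regions count more than once in these sums. The median reads per locus were 91 for EBF1wt and 207 for EBF1E271A. With 1 library per group there was no replicate and no test between the conditions. Ratios are EBF1E271A over EBF1wt, with exact binomial (Clopper-Pearson) 95% intervals of the reads, which cover counting error only rest on the inferred reads and treat the scale factors as exact. No listed region is at or below a scaled count of 100 in both libraries, so a locus above 100 in only 1 of them has its direction fixed by that limit, and its ratio is given below as a value only. The libraries hold no expression values, so the cell type and the activity of the 4 genes were not checked, and the input was not used per region.

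Of the 15 loci, 10 lay inside the gene body and 5 outside, against 54.0% inside over all 2121 loci. Listed start sites were found for Trio, Iqsec1 and Ralgps2, with 5 windows of 250 bases before to 50 bases after a start, and none for Tbc1d16. No window overlapped a region, and the windows lay at least 27.4 kb from the nearest of these loci. Over all genes, 183 of 21263 such windows (0.861%) overlapped a called region. EBF1 binds DNA as a homodimer at a palindromic motif, whose core letters, CCCNNGGG, occurred on either strand in 15.6% of all windows and in none of the 5. The letters TGGGAA of the motif of RBPJ, the DNA-binding partner of NICD1, occurred on either strand in 24.5% of all windows, and among the 5 in both windows of Iqsec1, at +31 and at -103 from the start. These windows were picked after the values were seen and are shown because the Iqsec1 loci with the highest ratios lie between them (RefSeq, GRCm38.p6, minus strand, RBPJ letters or their complement in capitals).
Iqsec1 start at chr6:90810074-90810373: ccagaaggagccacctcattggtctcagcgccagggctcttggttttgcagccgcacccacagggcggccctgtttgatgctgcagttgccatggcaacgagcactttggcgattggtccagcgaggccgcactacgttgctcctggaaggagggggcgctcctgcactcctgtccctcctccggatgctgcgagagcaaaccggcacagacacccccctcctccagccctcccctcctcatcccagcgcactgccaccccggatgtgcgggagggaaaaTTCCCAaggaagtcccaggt
Iqsec1 start at chr6:90716480-90716779: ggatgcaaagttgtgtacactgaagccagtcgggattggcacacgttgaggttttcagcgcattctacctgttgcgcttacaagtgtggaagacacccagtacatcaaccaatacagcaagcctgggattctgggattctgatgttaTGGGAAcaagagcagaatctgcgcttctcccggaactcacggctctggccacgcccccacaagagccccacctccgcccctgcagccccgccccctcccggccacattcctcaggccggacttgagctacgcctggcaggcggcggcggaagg
A match describes the letters only. The sequences of the 15 loci themselves were not used here.

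At Trio (gene ID 223435, chr15:27730649-28025848), 1 weak locus, above 100 in the EBF1E271A library alone, had the higher value there, and the other 4 had intervals that held equal counts. Trio is transcribed from the end with the higher coordinate, and the loci are numbered by coordinate. Locus 1 (chr15:27754633-27754932), 24.1 kb inside the end where transcription finishes, reached 82.2 scaled counts with EBF1wt and 121 with EBF1E271A, a ratio of 1.48 (1.08 to 2.05). This was the highest ratio of the 15 loci and exceeded that of 96.4% of all loci, while its mean value exceeded only 19.6% of them. Locus 2 (chr15:27876321-27876620), in the middle of the gene, had 101 and 85.4, a ratio of 0.844 (0.622 to 1.15). Locus 3 (chr15:27905369-27905668) was the strongest of the gene, with 159.7 and 175 and a ratio of 1.097 (0.871 to 1.39). Locus 4 (chr15:27912736-27913035), 7.07 kb further on, had 125 and 109, a ratio of 0.871 (0.664 to 1.15). The intervals of loci 2 to 4 held equal counts on the authors' scale. Locus 5 (chr15:28071157-28071456) lay 45.5 kb upstream of the start, 4.62 kb from the noncoding RNA gene Gm31458, with 125 and 114 and a ratio of 0.917 (0.6999 to 1.21).

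The spread among the Trio loci can be read without the spike-in scale, since a ratio of ratios does not depend on it. Among the loci above 100 in both libraries, the ratio at locus 3 was 1.26 times that at locus 4 (0.873 to 1.81) and 1.20 times that at locus 5 (0.831 to 1.72), so these did not differ beyond counting error. The highest and lowest ratios, at loci 1 and 2, both come from loci above 100 in 1 library only. Single intervals of the 5 loci all overlapped, in 10 of 10 pairs. Apart from its own 5 loci, the locus nearest to Trio lay 1714 kb from the gene body. The usual spacing of loci was not measured, so this is a value only.

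At Iqsec1 (gene ID 232227, chr6:90659596-90988480), all 4 loci lay inside the gene and had ratios below 1 at one pair and above 1 at the other, with 1 locus of each pair above 100 in both libraries. Transcription again runs from the higher coordinate. Locus 1 (chr6:90660928-90661227), 1.48 kb inside the end where transcription finishes, reached 117 scaled counts with EBF1wt and 92.98 with EBF1E271A, a ratio of 0.795 (0.597 to 1.07). Locus 2 (chr6:90688737-90689036) had 139 and 113, a ratio of 0.814 (0.627 to 1.06). Both ratios were below 1 with intervals that held it.

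The other two Iqsec1 loci lie 0.228 kb apart, between the listed start sites and 45.2 kb or more from either. Locus 3 (chr6:90764261-90764560) had 155 with EBF1wt and 199.9 with EBF1E271A, a ratio of 1.29 (1.03 to 1.64). Locus 4 (chr6:90764789-90765088) had 75.9 and 105, a ratio of 1.38 (0.998 to 1.95), with only 48 reads in the EBF1wt library. Loci 2 and 3 exceeded 100 in both libraries, and the ratio at locus 3, the strongest of the gene, was 1.58 times that at locus 2 (1.11 to 2.26), independent of the scale. Loci 1 and 4 exceeded 100 in only 1 library each, EBF1wt and EBF1E271A, so their directions add nothing to this contrast. How far these neighbours share DNA fragments was not tested, so they are not counted as separate evidence.

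At Tbc1d16 (gene ID 207592, chr11:119143043-119228503), the most strongly occupied of the 15 loci was higher in the EBF1E271A library and a weaker locus inside the gene, above 100 in the EBF1wt library alone, was lower. Locus 3 (chr11:119133774-119134073) lay outside the gene, 9.12 kb from it, where 618 scaled counts with EBF1wt stood against 774 with EBF1E271A, a ratio of 1.25 (1.12 to 1.41). Only 15 of the 2121 loci had a higher mean value. Among the 48 loci with a mean value of at least 500, 14 had a ratio above 1 and 1 had a higher ratio than this locus, a limit chosen after the values were seen. Locus 5 (chr11:119176546-119176845), 33.7 kb inside the gene and 0.365 kb from the noncoding RNA gene Gm11753, had 141 and 93.6, a ratio of 0.665 (0.508 to 0.875).

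The remaining Tbc1d16 loci were close to equal. Locus 1 (chr11:119122465-119122764) lay inside the noncoding RNA gene Gm11755 and 20.4 kb from Tbc1d16, with 247 scaled counts against 246 for EBF1E271A, a ratio of 0.998 (0.826 to 1.21). Locus 2 (chr11:119132105-119132404), 1.37 kb from locus 3, had 115 and 112, a ratio of 0.970 (0.734 to 1.29). Locus 4 (chr11:119162997-119163296), 20.1 kb inside the gene, had 196 and 180.3, a ratio of 0.919 (0.742 to 1.14). Loci 1 to 3 are nearer to Gm11755 than to Tbc1d16, and count for Tbc1d16 only because the rule uses protein-coding genes.

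Against the other Tbc1d16 loci, the ratio at locus 3 was 1.36 times that at locus 4 (1.06 to 1.74), 1.25 times that at locus 1 (1.001 to 1.57) and 1.29 times that at its neighbour locus 2 (0.946 to 1.75). All of these exceeded 100 in both libraries, and locus 3 was picked as the strongest of the gene. Locus 5 is left out of the contrast because the limit of 100 fixed its direction.

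Ralgps2 (gene ID 78255, chr1:156804166-156939850) had a single locus (chr1:156996502-156996801), 56.8 kb upstream of the gene and 6.96 kb from the noncoding RNA gene Gm39685. It had 221 scaled counts with EBF1wt and 144 with EBF1E271A, from 140 and 227 reads, a ratio of 0.649 (0.523 to 0.807). This was the lowest ratio of the 15 loci, and 12.5% of all loci had a lower one. It was also the locus furthest from its gene. Beyond 100 kb, no locus had 1 of the 4 genes as its nearest gene. The closest other locus to Ralgps2 lay 1391 kb away, and that to Iqsec1 lay 112 kb away, nearest to Nup210 (ratio 0.898).

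**Figure D1:**
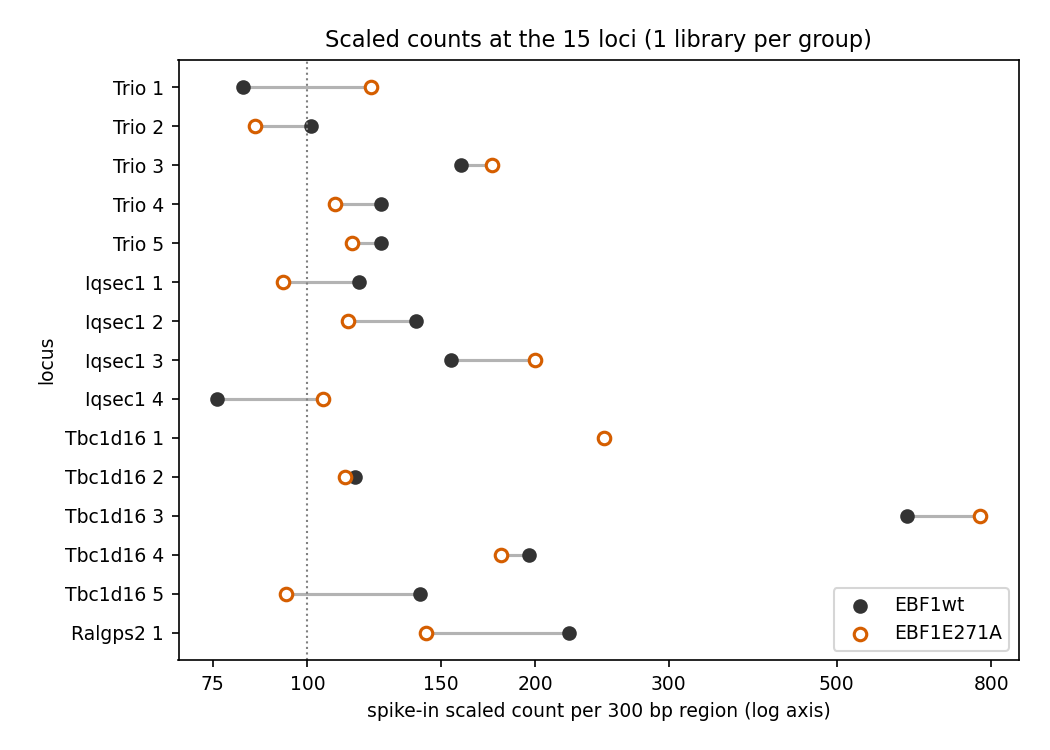
Spike-in scaled counts (x axis, log scale) of EBF1wt (filled points) and EBF1E271A (open points) at the 15 loci (y axis), numbered by coordinate within each gene, with 1 library per group and a dotted line at 100. EBF1E271A is the higher of the pair at 5 loci, and Tbc1d16 locus 3, at 618 and 774, stands far to the right of the others.

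**Figure D2:**
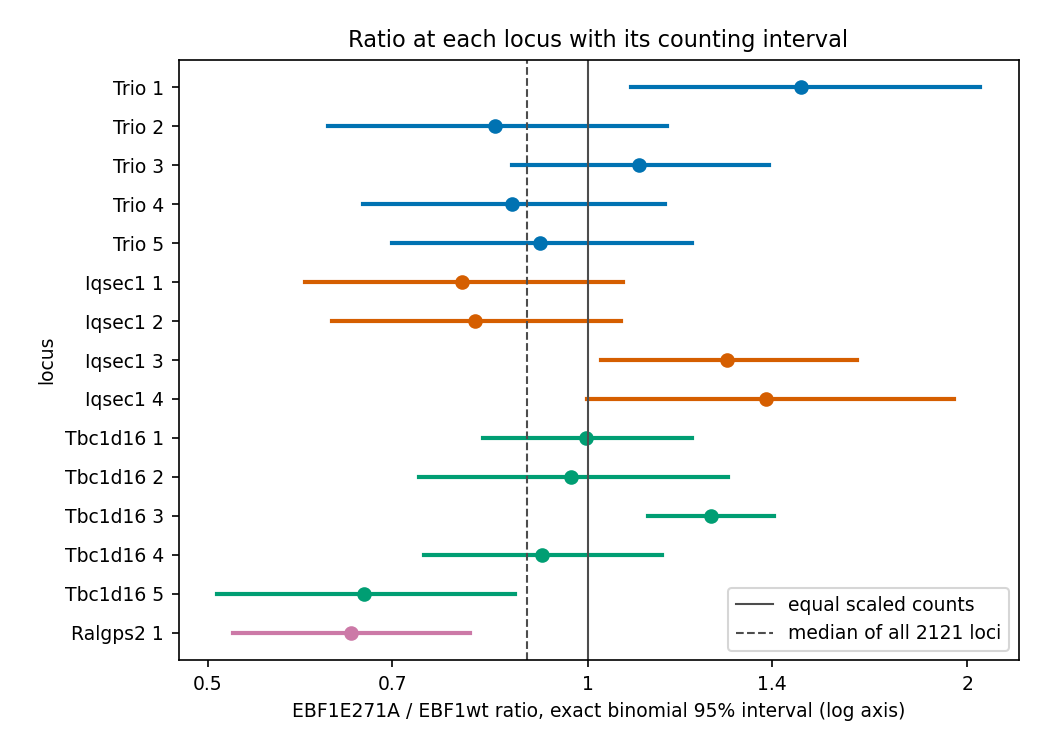
Ratio of EBF1E271A over EBF1wt (x axis, log scale) at each of the 15 loci (y axis); points are ratios and bars exact binomial 95% intervals of the reads, which cover counting error only. Trio locus 1, Iqsec1 locus 3 and Tbc1d16 locus 3 lie above 1 with their whole interval, and Tbc1d16 locus 5 and the Ralgps2 locus below. Over all 2121 loci the interval lay above 1 at 172 and below 1 at 633. Trio locus 1 and Tbc1d16 locus 5 exceeded 100 in 1 library only, so that limit fixed their directions.

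Taken as a set, the 15 loci resembled the table as a whole. Their median log2 ratio, after a pseudocount of 1, was -0.12 (95% binomial interval of the median -0.30 to 0.32), against -0.16 (-0.18 to -0.14) over all 2121 loci. Intervals of medians, here and below, take loci as independent, although the 15 come from 4 genes and some are close neighbours. They describe the spread among loci of 1 library per group, and loci are not replicates. The ratio lay below 1 at 10 of the 15, against 67.2% of all loci. No locus was at least 2-fold lower or higher, against 4.48% of all loci lower and 0.849% higher. By a 1.5-fold rule 1 locus, that of Ralgps2, was lower, against 14.1% of all loci, and 0 were higher, against 3.11%. Tbc1d16 locus 5, with a ratio of 0.665, is past 1.5-fold in its scaled counts and missed the rule only through the pseudocount, with a log2 ratio of -0.58. A share of 4.48% amounts to less than 1 of 15 loci, so these counts say little about the set.

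Measured by the counting interval, 2 of the 15 loci lay below the median ratio of all loci (0.896) and 4 above it, against 16.7% and 17.3% of all loci. The 2 were Tbc1d16 locus 5 and the Ralgps2 locus. The 4 were Trio locus 1, Iqsec1 loci 3 and 4, and Tbc1d16 locus 3. Of these 6, Trio locus 1, Iqsec1 locus 4 and Tbc1d16 locus 5 exceeded 100 only in the library where they were high. This leaves Iqsec1 locus 3, Tbc1d16 locus 3 and the Ralgps2 locus. The shares over all loci include loci above 100 in 1 library only, and the share among loci above 100 in both was not computed. The remaining loci are therefore named without a background share.

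**Figure D3:**
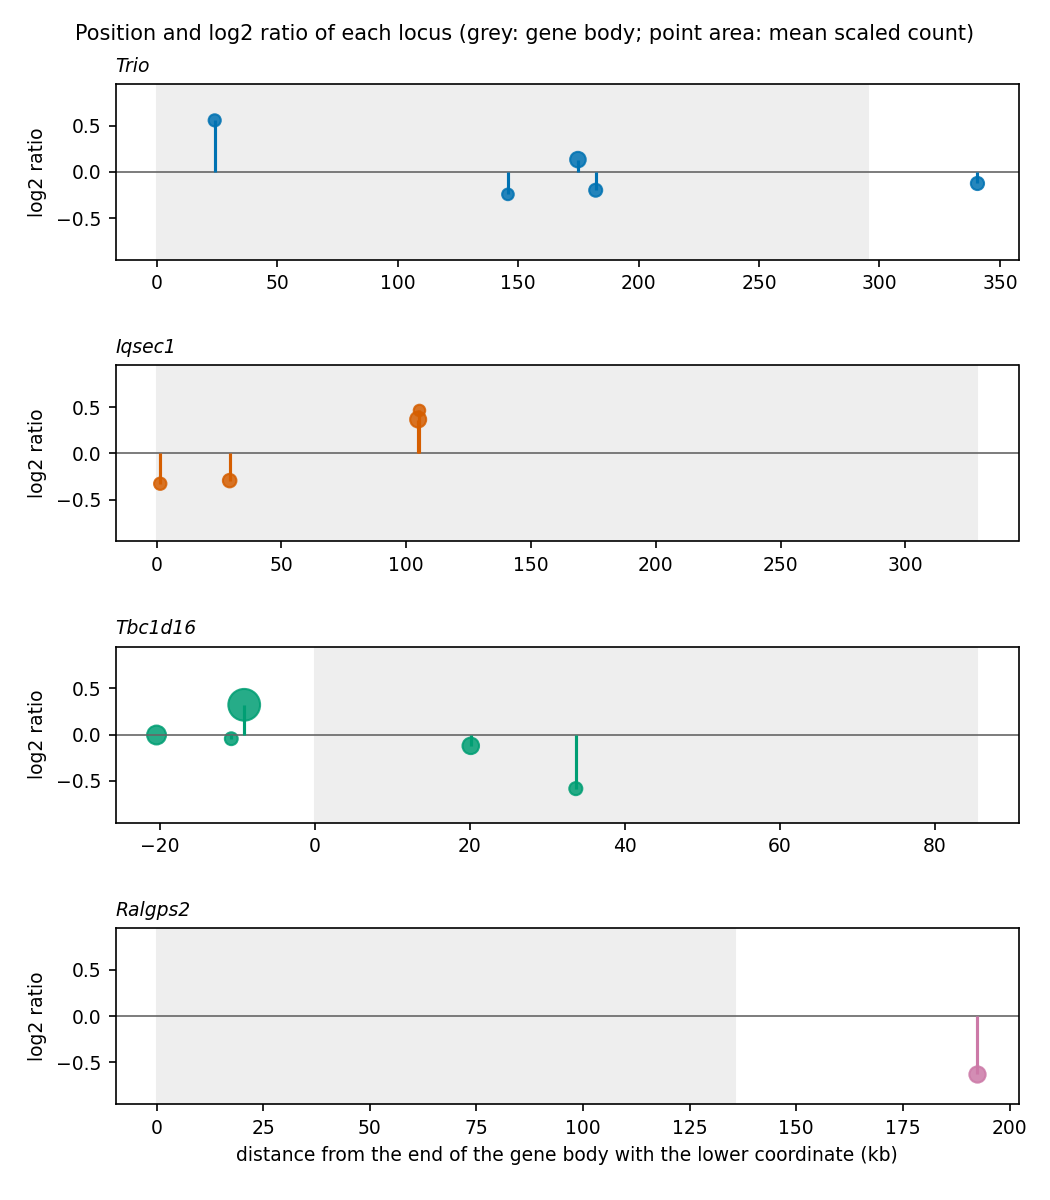
Log2 ratio of each locus (y axis) by its distance in kb from the end of the gene body with the lower coordinate (x axis), with the gene body in grey and point area by mean scaled count. The pair of Iqsec1 loci with ratios above 1 stands 104.8 and 105.3 kb into the gene, away from the other 2 Iqsec1 loci. The second of the pair exceeded 100 in the EBF1E271A library alone. The strong Tbc1d16 locus lies outside the gene body.

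Summed over the loci of a gene, the libraries were close for 3 of the 4 genes. The ratio of summed scaled counts was 1.02 (0.905 to 1.15) for Trio, 1.05 (0.919 to 1.20) for Iqsec1 and 1.07 (0.985 to 1.16) for Tbc1d16. For Ralgps2 it is the single ratio of 0.649. The sum for Tbc1d16 rests on locus 3, which held 46.9% of the EBF1wt sum and 55.04% of the EBF1E271A sum. Without it the ratio was 0.904 (0.808 to 1.01). In Iqsec1 the strongest locus held 31.8% and 39.1%, and in Trio 26.9% and 28.9%. Without it the ratio was 0.937 (0.796 to 1.11) for Iqsec1 and 0.993 (0.862 to 1.15) for Trio. The sums of these 3 genes include loci above 100 in 1 library only, whose directions that limit fixed.

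The limit of 100 bears on the weak loci. Both libraries exceeded 100 at 10 of the 15 loci, EBF1wt alone at 3 (Trio locus 2, Iqsec1 locus 1 and Tbc1d16 locus 5) and EBF1E271A alone at 2 (Trio locus 1 and Iqsec1 locus 4), against 68.4%, 23.1% and 8.49% of all loci. The highest ratios of Trio and of Iqsec1 are thus from loci of the last kind. Most loci are covered by a pair of overlapping regions. Of the 12 member loci with 2 distinct regions, both fell on the same side of 1 in all 12, and their ratios differed by at most 1.05-fold. Such pairs cover mostly the same bases. The offset within pairs was 0 to 62 bases with a median of 16, the same median as over all pairs. Trio locus 2 and Iqsec1 locus 4 had 1 region only, as did 5.94% of all loci.

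**Figure D4:**
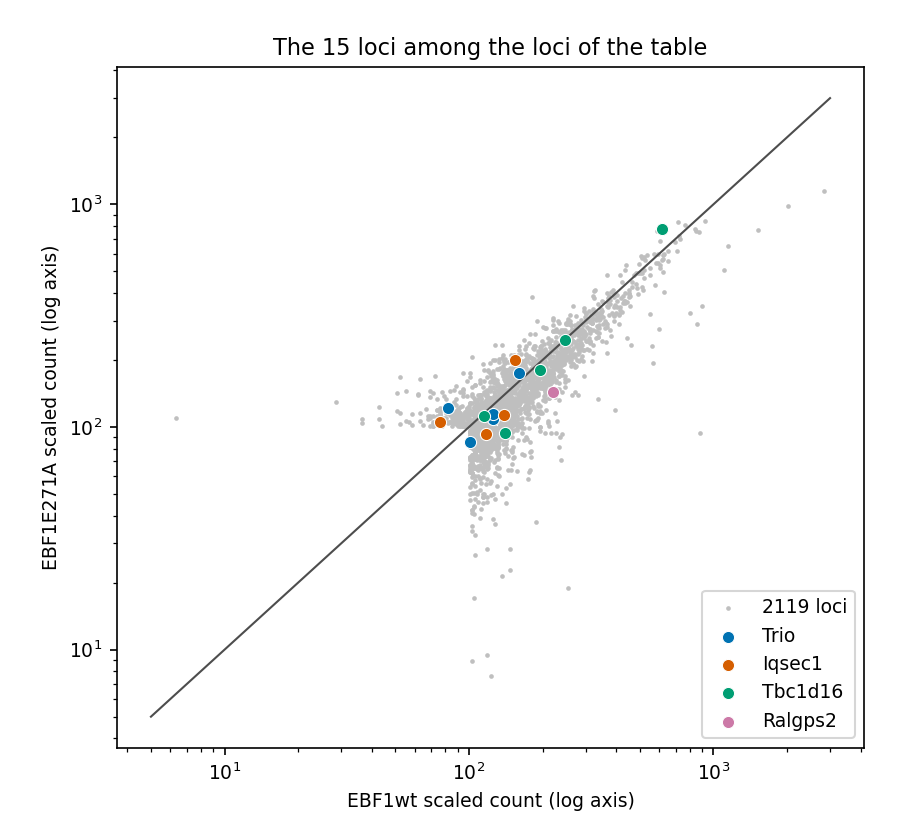
EBF1E271A (y axis) against EBF1wt (x axis) scaled counts on log axes for 2119 loci (grey; 2 loci beyond 3000 are not drawn), with the loci of the 4 genes in colour and a line at equal counts. The 15 loci lie within the cloud of all loci, and the corner below 100 on both axes is empty.

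Some directions depend on the scale set by the human chromatin. When the values summed over all regions, overlapping ones included, are made equal between the libraries, every log2 ratio rises by 0.22. The median of all loci becomes 0.06, and 10 of the 15 loci instead of 5 lie above 1. Over all loci the share below 1 drops likewise, from 67.2% to 42.9%, so the change in count is not particular to the 15. The ratio of the Ralgps2 locus is then 0.756 (0.610 to 0.941) and remains below 1 with its interval, while Tbc1d16 locus 5 has 0.776 (0.592 to 1.02). The upward shift brings the interval above 1 at 5 loci instead of 3. It adds Trio locus 3 at 1.28 (1.02 to 1.62) and Iqsec1 locus 4 at 1.61 (1.16 to 2.274). Of the 5, Trio locus 1 and Iqsec1 locus 4 exceeded 100 in the EBF1E271A library alone, so that limit fixed their directions. On the authors' scale the interval lay above 1 at 172 of all 2121 loci and below 1 at 633. Matching counts over all loci were not made on a shifted scale, so the counts say nothing particular about the 15. Loci already above 1 could only stay there under this shift. The size of the shift rests in part on the region of highest value. Without that region in the sums, a setting chosen after the values were seen, every log2 ratio rises by 0.15. The median of all loci is then -0.006, and 9 of the 15 loci lie above 1, while 50.6% of all loci lie below 1. The interval is above 1 at 4 of the 15 loci and below 1 at 2, so these counts depend on that region.

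Only 17 genes had 4 or more loci, and Trio, Tbc1d16 and Iqsec1 are 3 of them. Among these 17 the range of log2 ratios within a gene was widest at Hip1 (1.62) and narrowest at Tenm4 (0.43). The ranges of Tbc1d16 (0.91), Trio (0.80) and Iqsec1 (0.79) were the 8th, 10th and 11th. Both ends of the Trio and Iqsec1 ranges and the low end of the Tbc1d16 range are loci above 100 in 1 library only. That limit fixed their directions, so these ranges and ranks are values only. Likeness to other genes was measured as the root mean square difference of sorted log2 ratios between genes with equally many loci. For Iqsec1 the closest of 11 genes were Tns3 (0.24) and Prkce (0.25). For Trio and Tbc1d16 only Nav2 and Myl10 could be compared, with 0.60 and 0.70 for Trio and 0.52 and 0.57 for Tbc1d16. For Ralgps2, with 1 ratio to compare, the closest of 1361 genes were Ift122, with a ratio of 0.648, and Ankrd9, with 0.647, which says only that single ratios were nearly equal.

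Other regulators of small GTPases were taken from a list of 258 exchange factors and GTPase-activating proteins, of which 54 had a locus, the 4 members included. The 63 loci of the other 50 genes had a median log2 ratio of -0.16 (-0.25 to -0.03), equal to that of all loci, with 43 below a ratio of 1 and 20 above it. Of the 63, 3 were at least 2-fold lower and 0 higher, against 4.48% and 0.849% of all loci. The 3, of which those of Fgd2 and Rapgef5 were above 100 in the EBF1wt library alone, lay inside Fgd2, an exchange factor for Cdc42 (107.5 for EBF1wt and 49.97 for EBF1E271A, ratio 0.465, 0.332 to 0.652), inside Rapgef5, an exchange factor for Rap proteins (0.492, 0.350 to 0.694), and inside Adap1, an Arf GTPase-activating protein (0.493, 0.390 to 0.625). The highest ratios were at Cyth4, an exchange factor for Arf proteins (83.8 and 145, ratio 1.73, 1.28 to 2.38), Ralgps1, the paralog of Ralgps2 (1.45, 1.103 to 1.93), and Dock10, an exchange factor of the DOCK family (1.43, 1.03 to 2.02). Those of Cyth4 and Dock10 were above 100 in the EBF1E271A library alone.

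By class, exchange factors of the Dbl family had a locus at 13 of 58 genes, Trio included. The 15 loci other than those of Trio had a median log2 ratio of -0.10, and among them Prex1 had ratios of 1.15 and 1.09 and Fgd2 0.960, 0.465 and 0.835. Arf exchange factors had a locus at 4 of 16 genes, and the 3 loci of Cyth1 had ratios of 0.978, 0.948 and 0.779. The TBC family had a locus at 7 of 39 genes. Its 6 loci outside Tbc1d16 had a median of -0.45 (-0.78 to 0.08), an interval that holds the median of -0.04 of the 5 of Tbc1d16. Of the 6, 2 were above 100 in the EBF1wt library alone, as was Tbc1d16 locus 5, so that limit fixed their directions. None of the other TBC genes had more than 1 locus. Exchange factors of Ral, Ras and Rap had a locus at 6 of 20 genes, with a median of -0.09 without Ralgps2. Here Ralgps1 had ratios of 1.45 and 1.03, Rgl1 1.09 and 0.854, and Rapgef5 0.858 and 0.492.

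Classes without a member had few loci each. Arf GTPase-activating proteins had 7 loci with a median of -0.07, and Arap1 had 3 of them, with ratios of 0.996, 1.15 and 0.956. Ral, Ras and Rap GTPase-activating proteins had 7 loci (-0.18), with 1.13 and 0.945 at Dab2ip. Rab exchange factors had 5 (-0.17), with 0.888 and 0.756 at Dennd3, and the DOCK family had 2, inside Dock2 (0.982) and near Dock10.

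**Figure D5:**
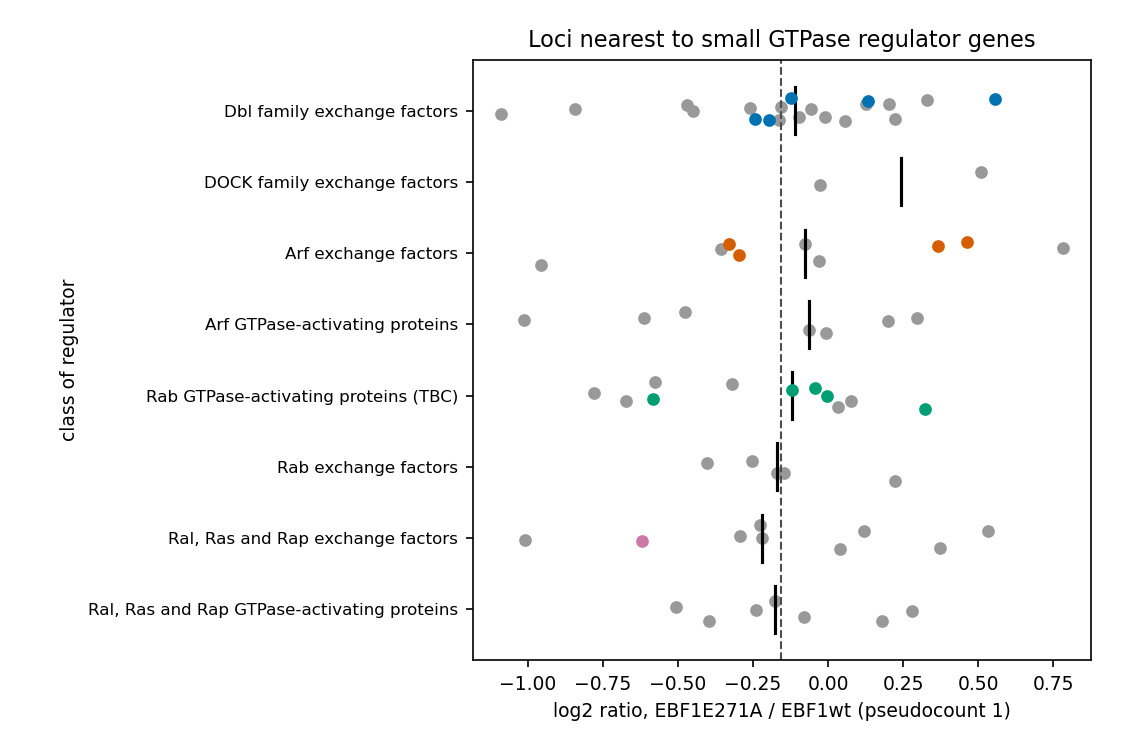
Log2 ratio (x axis, pseudocount 1) of each locus nearest to a listed regulator gene, by class (y axis, 8 of 9 classes drawn), with the loci of the 4 genes in colour (Trio blue, Iqsec1 orange, Tbc1d16 green, Ralgps2 pink), other genes in grey, a bar at the median of each class and a dashed line at the median of all loci, -0.16. Loci of most classes fall on both sides of the dashed line.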

How the data were processed

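The authors deposited a signal for EBF1wt and EBF1E271A, scaled counts in each region per the file headers, with the scale set by human spike-in chromatin per the labels. Tools named in the submitters' processing notes are deepTools 3.3.2 and 3.5.0, bedtools 2.27.0, MACS2 2.2.7.1, SAMtools 1.10 and Bowtie2 2.3.5.1, and the mouse build is GRCm38. Not given in the sources used here are their roles, the calling of regions and the scale factors. The positions of regions are other deposited values, start and end on GRCm38, taken as counted from 0 and printed from 1.

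All values are whole multiples of 1.5811 (EBF1wt) or 0.6325 (EBF1E271A) within a tolerance of 0.001 reads, which gave the unscaled reads; no source states these factors. A locus is given by its overlapping region with the higher mean. Ratios of ratios are conditional odds ratios with exact 95% intervals. Python 3.11.15, SciPy 1.17.1 and pandas 2.3.3 were used, and the intervals and fold rule were tested on simulated data. Of the regions 41 had tied nearest genes, none of a member.

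The members and lists were chosen with earlier results of these data known. All loci of the 4 genes are named, and of the listed genes those with 2 or more loci and the 3 lowest and 3 highest loci; 1 class of the list, with its genes, is not reported here. Motif letters for RUNX (TGTGGT) and ETS (GGAA) factors were also searched: TGTGGT was in none of the 5 windows (15.0% of all windows) and GGAA, which overlaps the RBPJ letters, in 4 (95.7%). Alternatives were equal sums, other pseudocounts, fold rules, distances, locus definitions and value limits.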

Additional observations from a re-analysis of the deposited data

How the results depend on the processing

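Of the 15 loci, 14 stayed within their main interval with equal sums. All 15 did so with a pseudocount of 10 and with the mean of overlapping regions. Tbc1d16 locus 3 moved to a log2 ratio of 0.54 with equal sums. Staying within depends on the width of the counting interval and does not mean an unchanged direction. With equal sums 10 of the 15 loci instead of 5 lay above 1, and over all loci the share below 1 fell from 67.2% to 42.9%. The median of the 15 loci became 0.10 with equal sums, and 0.03 with equal sums without the region of highest value, a setting chosen after seeing the data. It was 0.06 over the 6 loci at or above the median mean value of all loci. A limit of 10 kb left 11 loci, none of Ralgps2, with the same median of -0.12. The 1.5-fold rule counted 1 lower member locus in place of 0. For the other listed regulators, it counted 9 lower and 1 higher in place of 3 and 0. The lower count fell to 0 with equal sums, relative to the median of all loci, and with a pseudocount of 10, since all 3 lay just past 2-fold, and equal sums gave 1 higher. The median of those regulators reversed to 0.062 with equal sums, the shift shared by all loci. The ratio of sums became 1.19 for Trio, 1.22 for Iqsec1 and 1.24 for Tbc1d16 with equal sums. Without the strongest locus of each gene, also chosen after seeing the data, Tbc1d16 had 0.904, Iqsec1 0.937 and Trio 0.993. No paired analysis was possible because each group had 1 library. Depth limits the weak loci most: Iqsec1 locus 4 had 48 reads in EBF1wt.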
